A study of Mus musculus with 12 samples.

Results

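The kainate receptor subunit genes *Grik1*, *Grik2*, *Grik3*, *Grik4* and *Grik5* were followed through a list of poly(A) sites (PASs) from mouse hippocampal slices. A PAS is the position at which a pre-mRNA is cleaved and a poly(A) tail is added. The 5 genes were found by their symbols, and all 5 were in the list. Together they had 21 of its 56204 entries, in a list of 16627 genes. The PASs were identified by 3′READS+, which sequences the 3′ ends of polyadenylated RNA, in 12 libraries from C57BL/6 mice labelled as 3 month old. Slices with the dentate gyrus trimmed off were given chemical LTP, with 50 uM forskolin and then forskolin together with 30 mM KCl and 10 mM Ca2+, or were treated with 0.2% DMSO as controls. LTP and control slices were collected after 1 hr or 3 hr, giving 4 groups of 3 replicates, and each animal gave slices for both treatments. The study excluded 1 control library at 3 hr from its APA (alternative polyadenylation) analysis as an outlier by clustering. The study prepared libraries from samples in which *Arc* mRNA and the short *Homer1* isoform had risen. The long *Homer1* isoform and *Hprt* were unaltered in them. The LTP slices were thus chosen for a response. The paper presents *Homer1* as a gene whose intronic PAS was activated.

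The list describes the libraries together and not any group of them. It is larger than the set of PASs that the paper reports, whose counts followed a filter on reads and relative abundance. The reads at each PAS in each library were not analysed here, because the table heads its 12 columns of counts with names that fit no sample's label. What follows is therefore the set of 3′ ends listed for each subunit, with no level, no replicate error and no test between LTP and control slices. A PAS with very few reads counts as much as any other, and whether a site was used in 1 library or in all of them was not examined. With the counts left unused, the tissue was not checked against marker genes either.

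Kainate receptors are glutamate-gated ion channels assembled from the subunits of this gene family. *Grik1*, *Grik2* and *Grik3* encode GluK1, GluK2 and GluK3, which can form channels on their own, whereas *Grik4* and *Grik5* encode the high-affinity subunits GluK4 and GluK5, which need one of the others as a partner. In the hippocampus the receptors act on both sides of the synapse and are best known from the mossy fiber synapses onto CA3 pyramidal neurons. Alternative cleavage and polyadenylation (APA) within the last exon changes the length of the 3′UTR, and a PAS in an intron can give an mRNA that lacks the coding sequence further downstream.

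Of the 21 kainate receptor PASs, 9 were labelled exon3, read here as the last exon of the gene, and 11 carried an intronic label. The last one was labelled UA, the label of upstream antisense transcripts. *Grik2* had the most, with 8 PASs. *Grik1*, *Grik3* and *Grik5* had 4 each, and *Grik4* had 1. The median over all listed genes was 2. A count of 8 or more was reached by 9.56% of the listed genes and a count of 4 or more by 32.5%, while 32.9% of the genes had a single PAS, as *Grik4* did. None of the 21 sites was listed under another gene. The subunits thus ranged from a gene with the commonest count in the list, *Grik4*, to a gene near the upper end, *Grik2*.

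**Figure D1:**
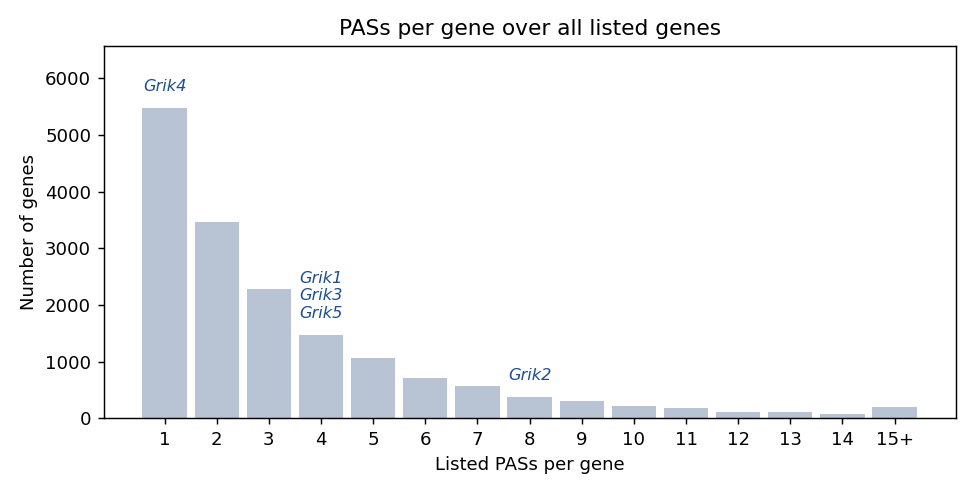
The bars give the number of genes (y axis) with each number of listed PASs (x axis, the last bar holding genes with 15 or more) over all 16627 genes, and the kainate receptor genes are written above the bar they fall in. *Grik4* falls in the tallest bar, at 1 PAS, *Grik1*, *Grik3* and *Grik5* in the bar at 4, and *Grik2* in the bar at 8.

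To show what a 3′ end of each subunit looks like, the last bases of an annotated mRNA are given here. For each gene, the longest protein-coding transcript with a complete 3′ end was taken from GENCODE M21, an annotation of GRCm38. The motifs AATAAA and ATTAAA, the common forms of the poly(A) signal, were searched on the sense strand in the last 40 nt. All 5 transcripts held AATAAA. Of the longest such transcripts of 21663 genes, 57.9% held AATAAA and 70.7% held either motif, so that its presence is common. The 30 nt shown for each gene are the last of the transcript, except in *Grik2*, where 4 nt follow them. Capitals mark AATAAA.
Grik1-202: ataatAATAAAcaagcggattttgtttttc
Grik2-207: AATAAAgcaatttttgtcccatttattctg
Grik3-201: aattttaAATAAAtgtttttagaaaatggg
Grik4-202: atttacAATAAAacaaaccctgaaatgtta
Grik5-201: tggAATAAAaaaaagaacaaaaccccaaaa
The motif began 25 nt from the end in *Grik1*, 34 nt in *Grik2*, 23 nt in *Grik3*, 24 nt in *Grik4* and 27 nt in *Grik5*. These are ends of the annotation. The listed PASs are on mm9 and were not placed on these transcripts, so none of the sequences is assigned to a listed site.

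*Grik2* (Ensembl identifier ENSMUSG00000056073.16) encodes GluK2 and had 5 intronic and 3 exon3 PASs on chromosome 10, where the gene lies on the minus strand. From the proximal to the distal end, its exon3 PASs were at mm9 positions 48820795, 48820510 and 48819384. The proximal site was 285 nt from the middle one, which in turn was 1126 nt from the distal one. The outermost 3′UTR PASs of *Grik2* were thus 1411 nt apart, wider than 66.9% of the 7465 genes with such a distance, whose median was 817 nt. This was the widest set of 3′UTR ends among the kainate receptor genes.

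All 5 intronic PASs of *Grik2* had the label intron_Comp, used for an exon that runs on into its intron. A pair of them lay far upstream, at 49292694 and 49291682, with 1012 nt between them. They were followed by PASs at 49240716 and 48964692, which were 420 kb and 144 kb upstream of the first exon3 PAS. The fifth, at 48825422, was only 4627 nt upstream of it. As many intronic PASs or more were listed for 5.43% of all genes. Over the whole list, 14.6% of the 12982 intronic entries for which the distance was measured lay more than 100 kb upstream of the first exon3 PAS of their gene, and 4 of the 5 in *Grik2* did. From the first PAS to the last, *Grik2* spanned 473.3 kb, more than 99.3% of the 10662 genes with at least 2 such sites. Such a distance needs a long gene, and gene length was not taken into account.

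*Grik1* (ENSMUSG00000022935.16), which encodes GluK1, was the kainate receptor gene with the label intron_Skip, given to a terminal exon that lies within an intron and is skipped when the full transcript is spliced. Its 2 PASs of this kind lay at 87946515 and 87945835 on the minus strand of chromosome 16, 680 nt apart. They were 50.3 kb and 49.7 kb upstream of the first exon3 PAS. A PAS labelled intron_Skip was listed for 5.82% of all genes, whereas 31% had one labelled intron_Comp, and *Grik1* had none of the latter. The exon3 PASs of *Grik1*, at 87896176 and 87896146, were 30 nt apart. Only 1.8% of the genes with 2 or more exon3 PASs had them closer together, and the distance is not far above the limit within which the study merged neighbouring sites. The 2 listed 3′UTR ends of *Grik1* thus differ by very little sequence.

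*Grik3* (ENSMUSG00000001985.9) encodes GluK3 and was the gene on the plus strand, on chromosome 4. Its exon3 PASs at 125391312 and 125391417 were 105 nt apart, and 12.5% of the genes with such a distance had a smaller one. An intron_Comp PAS at 125373283 lay 18.0 kb upstream of the first of them, close to the median of 20.0 kb for intronic entries over the whole list. The remaining PAS, at 125166577, was labelled UA and carried the minus strand in its name, opposite to the gene. It was 206706 nt upstream of the intronic PAS. UA sites mark RNA made from the antisense strand upstream of a gene, and 13.8% of the listed genes had one. No other kainate receptor gene did.

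*Grik5* (ENSMUSG00000003378.9) encodes GluK5, the high-affinity subunit that commonly joins GluK2. On the minus strand of chromosome 7 it had a single exon3 PAS, at 25794876, and 3 intron_Comp PASs. These lay at 25852633, 25828906 and 25796079, which put them 57.8 kb, 34.0 kb and 1.2 kb upstream of the exon3 PAS. Only 4.84% of the intronic entries in the list were nearer to the first exon3 PAS of their gene than the last of these. As many intronic PASs or more were listed for 11.6% of genes. With a single exon3 PAS, *Grik5* had no proximal and distal 3′UTR pair in the list, and its listed alternatives were all intronic.

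*Grik4* (ENSMUSG00000032017.14) encodes GluK4, a subunit known for its expression in CA3 pyramidal neurons. It was listed with a single exon3 PAS, at 42328500 on the minus strand of chromosome 9, and with no intronic PAS. It was the only kainate receptor gene for which the list gave no choice of 3′ end at all.

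**Figure D2:**
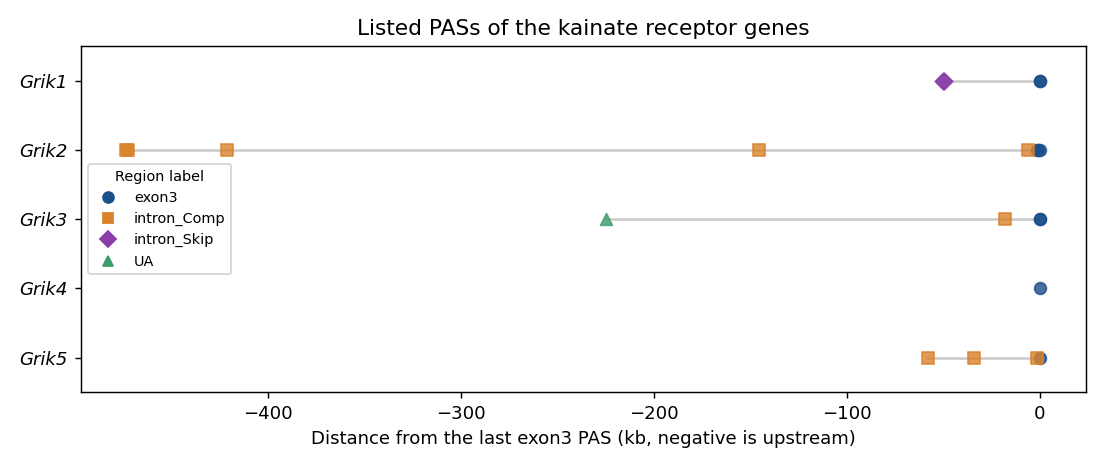
Each row is a kainate receptor gene, and each symbol is a listed PAS placed by its distance in kb from the last exon3 PAS of the gene (x axis, negative values upstream), with colour and shape giving the region label. The PASs of *Grik2* reach 473.3 kb upstream, those of *Grik1* and *Grik5* 50.37 kb and 57.76 kb, and *Grik4* has a single point at 0. Sites close together overlap at this scale.

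Across the 5 genes, 3 had 2 or more exon3 PASs and so could change 3′UTR length between listed sites. Over the list, this held for 49.5% of the genes with an exon3 PAS. The 3 spans were 30 nt in *Grik1*, 105 nt in *Grik3* and 1411 nt in *Grik2*, so that *Grik2* alone exceeded the median of 817 nt. In the GENCODE transcripts shown above, the annotated 3′UTR was 294 nt in *Grik1*, 520 nt in *Grik5*, 2694 nt in *Grik4*, 6082 nt in *Grik3* and 6275 nt in *Grik2*. A long annotated 3′UTR thus did not go with several widely spaced PASs in every case. *Grik3* and *Grik2* had annotated 3′UTRs of similar length, yet their exon3 PASs spanned 105 nt and 1411 nt. *Grik4*, with a 3′UTR longer than those of *Grik1* and *Grik5*, had 1 exon3 PAS. The transcripts were chosen by their full length and not by their 3′UTR, and the listed PASs were not placed on them. No relation was tested over 5 genes.

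**Figure D3:**
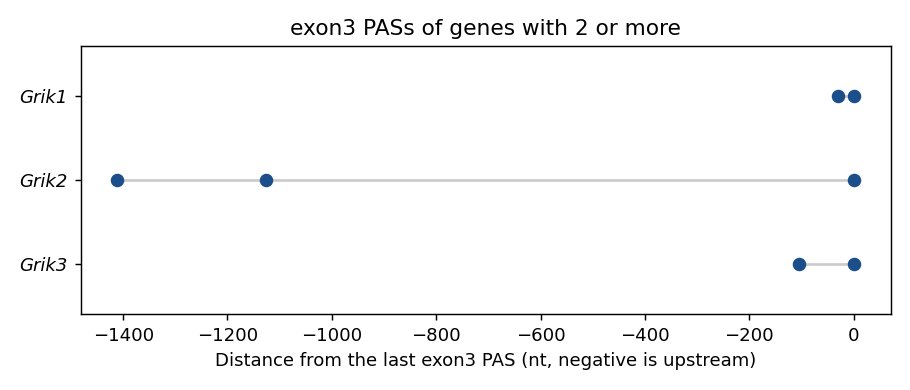
The exon3 PASs of the 3 genes with 2 or more are placed by their distance in nt from the last of them (x axis, negative values upstream). The pair of *Grik1* is 30 nt apart and that of *Grik3* 105 nt, while the 3 PASs of *Grik2* span 1411 nt.

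An intronic PAS was listed for 4 of the 5 genes, against 33.5% of all listed genes. Gene length was not taken into account in the comparisons with the whole list given here, and *Grik2* held 5 of the 11 intronic PASs. All 11 intronic PASs lay upstream of every exon3 PAS of their gene, which follows from reading exon3 as the last exon. Their distances from the first exon3 PAS ran from 1203 nt in *Grik5* to 471899 nt in *Grik2*. Of the 11, 9 were labelled intron_Comp and 2 intron_Skip. Intronic sites made up 55.0% of the 20 kainate receptor PASs labelled intronic or exon3, counting sites and not reads, and 32.7% over the whole list. With 5 genes and sites that share a gene, no test of this difference was made. For its own smaller set of PASs, the paper reports a lower intronic share than that of the whole list used here.

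The AMPA and NMDA receptor genes give a scale for these numbers. The 4 AMPA receptor genes, which encode the channels that carry most fast excitatory transmission, had 19 PASs in all, from 2 to 11 per gene. Intronic sites were 52.6% of their intronic and exon3 sites, next to 55.0% for the kainate receptor genes. They were listed for 2 of the 4 AMPA receptor genes, with 9 of the 10 in *Gria3*. The 7 NMDA receptor genes, which encode the channels needed to induce many forms of LTP, had 49 PASs and an intronic share of 81.0%. No exon3 PAS was listed for 3 of them, *Grin2a*, *Grin2d* and *Grin3a*, while every kainate and AMPA receptor gene had at least 1. Why these 3 genes had none was not tested. The reading of exon3 as the last exon was not checked against an annotation. These 3 genes held 9, 6 and 13 of the 34 intronic sites in the NMDA receptor group. Its intronic share therefore rests largely on genes without a listed exon3 site. A UA site was listed for 5 NMDA receptor genes, for 1 kainate receptor gene and for 0 AMPA receptor genes.

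The 3′UTR spans of the kainate receptor genes can be set beside those of the AMPA receptor genes. *Gria1*, *Gria2* and *Gria3* had outermost exon3 PASs 2254 nt, 2759 nt and 1557 nt apart, each wider than the 1411 nt of *Grik2*, and *Gria4* had a single exon3 PAS. The genes for the auxiliary proteins that associate with kainate receptors also differed from each other. *Neto1* had 12 PASs, of which 8 were intronic, and *Neto2* had 3, all exon3 and spread over 2533 nt. In the AMPA receptor, NMDA receptor and auxiliary groups, genes with only exon3 PASs or a single PAS stood beside genes with several intronic ones, as *Grik4* did beside *Grik2*.

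**Figure D4:**
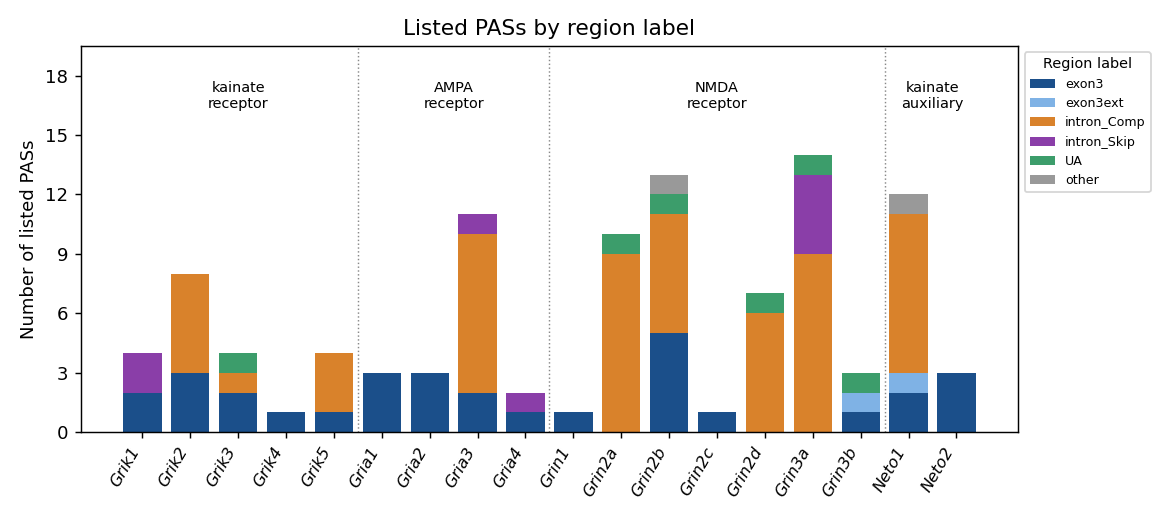
Stacked bars give the number of listed PASs (y axis) with each region label for the kainate, AMPA and NMDA receptor genes and the kainate receptor auxiliary genes (x axis, groups divided by dotted lines). The kainate receptor genes reach at most 8 PASs, in *Grik2*, against 11 in *Gria3* and 14 in *Grin3a*.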

How the data were processed

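Per the labels and the study's methods, 3′READS+ reads of 12 libraries were mapped with Bowtie2 to mm9 (version not given in the sources used here). The authors took reads that start with Ts absent from the genome as evidence of a PAS and clustered neighbouring PASs. The deposited table gives, for each PAS, its gene, position, strand and a label of the region. Its 12 columns of read counts have names that match no sample and were not used, so the LTP and control libraries were not compared, no depth is given, and the planned count test was not run.

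PASs per gene, labels and distances were counted in pandas 2.3.3 (numpy 2.4.6, Python 3.11.15), with plots by matplotlib 3.10.9. The code that counts PASs, measures spans and joins close sites was tested on simulated lists of sites. The code for upstream distances and for motifs was not. Intronic PASs are those labelled intron_Comp or intron_Skip. The labels' meaning was taken from their names. Distances over all spans leave out UA sites. Gene identifiers are those of the Ensembl gene names, which matched all 5 symbols. Annotated transcripts are on GRCm38, and no position was converted. All 5 kainate receptor genes are named, with the AMPA receptor, NMDA receptor and auxiliary genes as groups. A further planned comparison group is not reported here. The members and lists were chosen with earlier results of these data known.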

Additional observations from a re-analysis of the deposited data

How the results depend on the processing

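The 10 results on the kainate receptor genes (PASs per gene, 3′UTR spans, genes with 2 or more 3′UTR PASs and genes with an intronic PAS) gave 20 alternative values, none more than 1.5 times above or below its first value. Joining PASs within 100 nt left 3 of the 4 PASs of *Grik1*, leaving out UA sites left 3 of the 4 in *Grik3*, and counting intron_Comp alone left 3 of the 4 genes with an intronic PAS. Leaving out sites listed under more than 1 gene and adding exon3ext sites changed no value. Neither setting could, since no kainate receptor PAS was listed under another gene or labelled exon3ext. Leaving out UA sites could change *Grik3* alone, which held the only UA site of these genes. Joining was applied to the PASs per gene only. The exon3 PASs of *Grik1*, 30 nt apart, fall within its 100 nt. The span of *Grik1* and its place among the genes with 2 or more 3′UTR PASs thus depend on keeping them apart. The alternatives for LTP against control slices (another count test, no filter, the replicate block, each replicate or the outlying library left out) were not run. No paired analysis was possible because no column of counts could be given to a sample by its name.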
